A study of Rattus norvegicus with 9 samples.

Results

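The miR-221 and miR-222 cluster was followed across 3 states of vascular smooth muscle cells cultured from rat aorta. It yields 4 mature miRNAs, rno-miR-221-3p, rno-miR-221-5p, rno-miR-222-3p and rno-miR-222-5p (printed below without the rat prefix), which are the arms of 2 hairpins and were taken by name from a count table of 762 mature rat miRNAs. Each of the 4 had counts in all 9 libraries, and each was among the 304 miRNAs abundant enough to test. Differentiated cells (3 libraries) received no treatment. PDGF-BB cells (3 libraries) were exposed for 24 h to 30 ng/ml of platelet-derived growth factor BB, which drives smooth muscle to divide. H3K4me2-edited cells (3 libraries) were transduced with a lentivirus expressing a sequence labelled Myocardin-F-LSD1, pairing the name of a transcriptional co-activator of the contractile programme with that of a histone H3 lysine demethylase. De-differentiated is the term the sample titles use for PDGF-BB as well as edited cells. Serum starvation for 24 h before treatment is given in the protocol of every sample, and whether it applied to the untreated and the edited cells is not stated. Empty-lentivirus libraries were not analysed here, so the construct and the transduction cannot be told apart in the edited cells.

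A miRNA hairpin is cut into a duplex of a 5p and a 3p arm, one of which is usually loaded into Argonaute as the guide while the other is mostly degraded. For miR-221 and miR-222 the 3p arm is the usual guide, and its seed pairs with transcripts of the cyclin-dependent kinase inhibitors Cdkn1b and Cdkn1c and of the receptor Kit. In vascular smooth muscle these miRNAs are known as promoters of proliferation that growth factors and vessel injury raise, while in endothelium they are known to restrain growth and migration.

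Sequences from RefSeq (assembly GRCr8) place both hairpins on the plus strand of rat chromosome X, mir-222 at chrX:6022621-6022723 and mir-221 at chrX:6023182-6023290, with 458 bases between them. They are shown because the results turn on which arm of which hairpin changed. In the hairpins, 5′ to 3′, capitals mark the 5p arm and then the 3p arm.
mir-222: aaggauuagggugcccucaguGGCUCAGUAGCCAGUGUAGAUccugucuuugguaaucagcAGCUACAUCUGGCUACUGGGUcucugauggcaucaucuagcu
mir-221: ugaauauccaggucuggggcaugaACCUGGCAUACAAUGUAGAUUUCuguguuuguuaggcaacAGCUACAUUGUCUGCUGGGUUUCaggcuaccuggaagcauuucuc
In the mature arms, capitals mark the seed (bases 2 to 8).
miR-221-3p: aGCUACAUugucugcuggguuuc
miR-222-3p: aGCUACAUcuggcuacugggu
miR-221-5p: aCCUGGCAuacaauguagauuuc
miR-222-5p: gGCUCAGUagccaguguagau
Both 3p arms begin with the same 8 bases and so share a seed, which no other of the 693 mature rat miRNAs in the RefSeq table carries. The 5p arms have different seeds, and neither is shared with another miRNA of that table.

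Library totals ran from 1783409 to 3850232 counts for differentiated cells, from 1982051 to 3568888 after PDGF-BB, and from 3149262 to 11392178 for edited cells. CPM are counts scaled to a library total of 1000000, here adjusted by TMM factors, which correct for differences in library composition, and group levels are given as mean ± SD over n = 3 libraries. The 4 smooth muscle marker arms, those of miR-143 and miR-145, summed to between 214826 and 251372 CPM in differentiated libraries, between 133159 and 171184 after PDGF-BB, and between 37105 and 63112 after editing. The 2 endothelial marker arms, both of miR-126a, lay between 1760.0 and 2145 CPM in differentiated libraries, between 1791 and 1895 after PDGF-BB, and between 2905 and 3346 after editing, where the guides described below were lowest. Endothelial RNA can carry miR-221 and miR-222, and its part in the results was not tested. Blood markers (7 of 7 with a count) summed to 76.1 to 98.4 CPM after editing, above the 47.6 to 72.8 CPM of differentiated and the 49.0 to 64.7 CPM of PDGF-BB libraries. Among them miR-150-5p was higher in edited than in differentiated cells (log2 fold change 1.35), while miR-142-3p (−0.52) and miR-142-5p (−0.62) did not pass. Epithelial markers (7 of 8, miR-375-3p at 0) had their highest sum in differentiated libraries, at 74.6 to 105 CPM. Their sum was 38.1 to 53.2 CPM with PDGF-BB and 22.4 to 49.3 CPM after editing. Single epithelial markers moved in opposite directions between edited and differentiated cells. There miR-200a-3p (log2 fold change −4.69), miR-200b-3p (−4.79) and miR-429 (−5.25) were called lower. In the same comparison miR-200c-3p, miR-141-3p and miR-203a-3p were called higher, each by at least 1.91. With PDGF-BB miR-200a-3p was called lower than in differentiated cells (−1.20). Neuronal markers (4 of 5, miR-124-3p at 0) summed to 717 to 851 CPM in untreated cells, 774 to 846 CPM with PDGF-BB and 835 to 1032 CPM after editing. Among them miR-9a-5p (log2 fold change 2.03) and miR-9a-3p (1.40) were called higher in edited than in differentiated cells. With PDGF-BB miR-129-5p was called higher than in differentiated cells (2.25), and miR-128-3p passed in neither comparison. The part of these cell types in the results was not tested either. Log2 fold changes are given ± SE from edgeR's quasi-likelihood test across the 304 miRNAs, called at an adjusted p under 0.05.

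miR-221-3p, the most abundant of the 4, stood at 6633, 4325 and 4662 CPM in differentiated replicates 1, 2 and 3. It stood at 11583, 10181 and 9710 CPM in PDGF-BB replicates and at 2774, 2332 and 2619 CPM in edited replicates. PDGF-BB libraries were highest and edited libraries lowest, and no pair of groups overlapped. The group levels were 5207 ± 1247, 10492 ± 974 and 2575 ± 224 CPM (n = 3 each), in the order differentiated, PDGF-BB, edited. Among all miRNAs of a library its rank was 27 to 35 in differentiated cells, 17 to 18 after PDGF-BB, and 44 to 50 after editing. It supplied 93.3% to 95.6% of the counts of the 4 arms in each library.

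miR-222-3p, the guide with the same seed, was far less abundant. It measured 371, 217 and 292 CPM in differentiated replicates 1, 2 and 3, 667, 591 and 482 CPM in PDGF-BB replicates, and 123, 112 and 99.0 CPM in edited replicates. The order of the groups was that of miR-221-3p, again without overlap.

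miR-221-5p, the passenger arm of miR-221, stood at 52.3, 32.2 and 35.7 CPM in differentiated replicates 1, 2 and 3. It stood at 66.9, 53.6 and 47.9 CPM in PDGF-BB replicates and at 18.0, 13.5 and 11.6 CPM in edited replicates. Differentiated replicate 1 lay above PDGF-BB replicate 3, so those groups overlapped, while edited libraries lay below all others. The overlap depended on the scaling. With library totals in place of TMM factors, differentiated libraries gave 29.3 to 44.3 CPM and PDGF-BB libraries 49.3 to 61.0 CPM.

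miR-222-5p, the passenger arm of miR-222, gave 7.94, 14.8 and 8.66 CPM in differentiated replicates 1, 2 and 3, on 12, 52 and 16 counts. It gave 48.1, 58.4 and 73.2 CPM in PDGF-BB replicates, on 87, 145 and 269 counts. Edited replicates gave 12.7, 6.34 and 9.69 CPM, on 46, 93 and 82 counts. PDGF-BB libraries stood far above the others, and differentiated and edited libraries overlapped. Counting error alone allows 4.10 to 13.9 CPM in differentiated replicate 1 and 11.1 to 19.4 CPM in differentiated replicate 2 (exact 95% Poisson intervals), and these intervals overlap. Within the differentiated and the PDGF-BB groups, the library lowest in miR-222-5p, replicate 1 in both, was the highest in each of the other 3 arms.

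**Figure D1:**
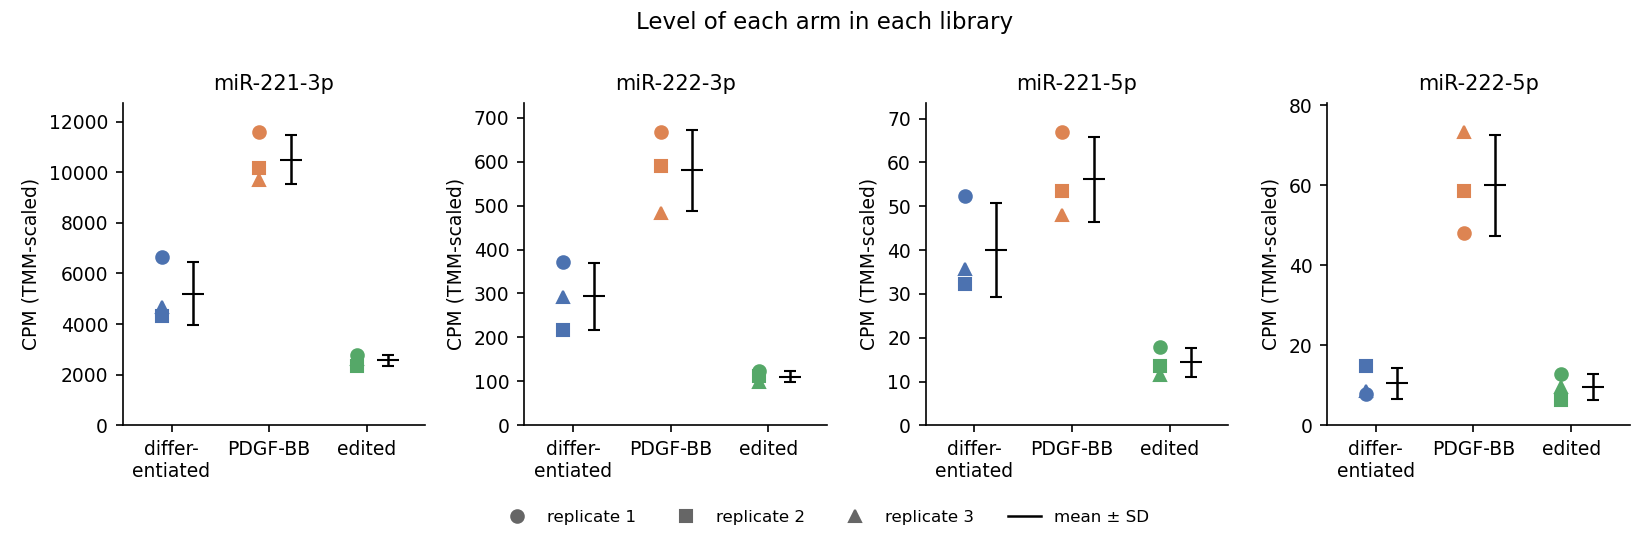
TMM-scaled CPM (vertical axes, linear from 0, 1 scale per panel) of the 4 arms in each of the 9 libraries; symbols mark replicates and bars the mean ± SD of 3 libraries. PDGF-BB libraries are highest in each panel except that miR-221-5p overlaps differentiated cells, and edited libraries are lowest except for miR-222-5p, where they overlap differentiated cells.

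PDGF-BB against differentiated cells asks how the cluster differs after the growth factor. Mean CPM was 2.02-fold higher for miR-221-3p, 1.98-fold for miR-222-3p and 5.73-fold for the passenger arm miR-222-5p, while the passenger arm of miR-221 did not pass. miR-221-3p rose by a log2 fold change of 1.01 ± 0.16 (edgeR adjusted p = 0.00645) and miR-222-3p by 0.99 ± 0.20 (edgeR adjusted p = 0.0131). miR-222-5p rose by 2.45 ± 0.32 (edgeR adjusted p = 0.00280), with 501 counts over the 3 PDGF-BB libraries against 80 over the 3 differentiated libraries. Its log2 fold change was the second highest of the 304. miR-221-5p, at 0.50 ± 0.24 (edgeR adjusted p = 0.221), had a 95% interval of −0.027 to 1.03 that includes both no change and the size of the guides' rise. The 3 of 4 arms that rose stand beside 7.24% of all tested miRNAs called higher. The same 3 had groups that did not overlap in TMM-scaled CPM, which in the upward direction held for 18.1% of all tested miRNAs.

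The call of miR-222-5p was kept whichever of the 9 libraries was left out. That of miR-221-3p was lost without differentiated replicate 3 (0.88 ± 0.20, edgeR adjusted p = 0.0710). That of miR-222-3p was lost without differentiated replicate 2 (0.80 ± 0.20, 0.0564), differentiated replicate 3 (0.93 ± 0.26, 0.1002), PDGF-BB replicate 1 (0.86 ± 0.23, 0.0616) or PDGF-BB replicate 2 (0.97 ± 0.25, 0.0614), all edgeR adjusted p. Over the whole table the 31 calls fell to 3 without differentiated replicate 3.

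Edited against differentiated cells compares the epigenetically edited state with the untreated one. Both guides and the passenger arm of miR-221 fell, and the passenger arm of miR-222 did not pass. miR-221-3p fell by 1.02 ± 0.16 on the log2 scale (edgeR adjusted p = 0.000656), miR-222-3p by 1.40 ± 0.20 (0.000369) and miR-221-5p by 1.48 ± 0.24 (0.000763). miR-222-5p changed by −0.26 ± 0.33 (edgeR adjusted p = 0.518; 95% interval −1.01 to 0.48). The fall of 3 of 4 arms stands beside 27.0% of tested miRNAs called lower in this comparison and 31.9% whose edited libraries all lay below the differentiated ones.

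The size of these falls depended on the scaling. With library totals in place of TMM factors the median of all miRNAs moved up by 0.45, and the 3 arms still fell, with log2 fold changes of −0.56 ± 0.13 for miR-221-3p, −0.94 ± 0.19 for miR-222-3p and −1.03 ± 0.23 for miR-221-5p (edgeR adjusted p = 0.00415, 0.00153 and 0.00281). Over all tested miRNAs the calls were then 13.2% lower and 49.7% higher. miR-222-5p turned to 0.17 ± 0.34 and did not pass. Sequencing depth also differed, edited replicates 2 and 3 being the deepest. After each library was thinned to the smallest total in 1 random draw the 3 falls passed at −1.01, −1.38 and −1.56, in the same order. miR-222-5p, at 0.47 ± 0.38, did not pass. Differentiated replicate 2 kept 15 of its 52 counts of miR-222-5p in that draw. Among the 10 draws made for the ratios below, it gave the most negative miR-222 3p:5p change between these groups (−1.81). Levels were not tested in the other draws. In bulk RNA fewer cells carrying a miRNA and less of it per cell cannot be told apart.

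Edited against PDGF-BB cells sets the 2 states that the titles call de-differentiated side by side, and here all 4 arms were lower in edited cells, whichever of the 9 libraries was left out. The log2 fold changes were −2.03 ± 0.16 for miR-221-3p (edgeR adjusted p = 1.4e-05), −2.38 ± 0.20 for miR-222-3p (1.8e-05), −1.98 ± 0.24 for miR-221-5p (0.000105) and −2.71 ± 0.30 for miR-222-5p (5.9e-05). In mean CPM the arms were 3.91 to 6.25 times higher in PDGF-BB than in edited cells. Of all tested miRNAs 30.9% were called lower and 32.9% had edited libraries all below the PDGF-BB ones, as each member did. The members ranked 9, 17, 20 and 21 from the lowest log2 fold change. The 3 comparisons share groups, so their results are not independent of each other.

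**Figure D2:**
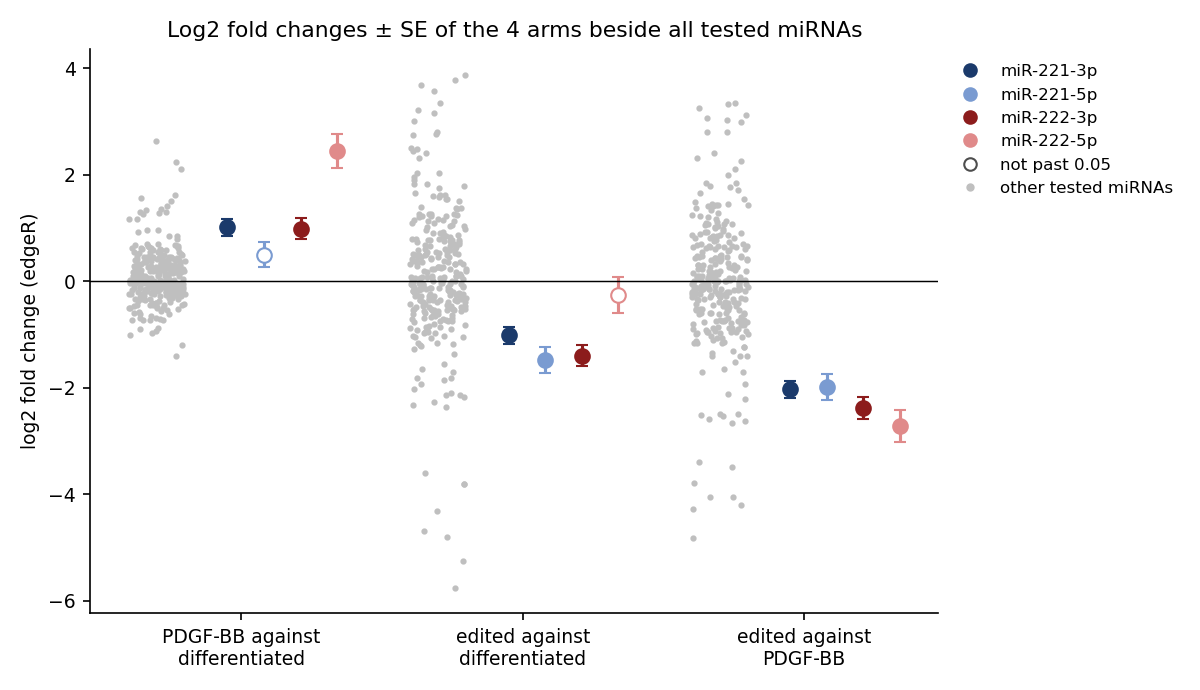
Log2 fold changes (vertical axis) from edgeR in the 3 comparisons; coloured points with bars are the 4 arms ± SE, filled where the adjusted p was under 0.05, and grey points are the other tested miRNAs. miR-222-5p stands near the top with PDGF-BB, and the 4 arms lie between −1.98 and −2.71 in edited against PDGF-BB cells.

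The ratio of the 2 arms of a hairpin within a library needs no scaling, and it moved in opposite directions for the 2 hairpins. The miR-221 3p:5p ratio of counts was 127, 134 and 131 in differentiated replicates 1, 2 and 3. It was 173, 190.0 and 203 in PDGF-BB replicates and 154, 173 and 226 in edited replicates. Differentiated libraries lay below both other groups and close together. The miR-222 3p:5p ratio was 46.7, 14.7 and 33.7 in differentiated replicates, 13.9, 10.1 and 6.59 in PDGF-BB replicates, and 9.63, 17.6 and 10.2 in edited replicates. Differentiated libraries were higher and more scattered, replicate 2 lying just above PDGF-BB replicate 1 and within the range of the edited libraries. The size of such a ratio also carries the efficiency with which each sequence enters a library, and whether that differed between the groups was not tested.

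The change of the ratio was tested for the 98 hairpins with both arms abundant enough, as an arm-by-group term in an edgeR quasi-likelihood model with the library as a block. With PDGF-BB the miR-221 ratio rose 1.45-fold (log2 0.53 ± 0.15, edgeR adjusted p = 0.0212), while the miR-222 ratio fell by 1.36 ± 0.31 on the log2 scale (edgeR adjusted p = 0.00642). Of the 98 hairpins 3.06% were called with a higher ratio in this comparison and 4.08% with a lower one. In edited against differentiated cells the miR-221 ratio rose 1.40-fold (0.49 ± 0.15, edgeR adjusted p = 0.0454), beside 6.12% of hairpins called higher. The miR-222 ratio, at −0.91 ± 0.34 (edgeR adjusted p = 0.112), did not pass. Between edited and PDGF-BB cells neither ratio passed, with 95% intervals of −0.35 to 0.26 for miR-221 and −0.073 to 0.97 for miR-222, where 9.18% of hairpins were called in either direction.

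Several of these ratio calls rested on the test or on single libraries. With limma on the log2 ratios the PDGF-BB changes were 0.53 ± 0.15 and −1.51 ± 0.45 and neither passed (adjusted p = 0.0816 for both). The miR-222 change with PDGF-BB was lost without differentiated replicate 1 (−1.07 ± 0.35, edgeR adjusted p = 0.107) and kept in the other 8 fits, with values down to −2.08 without differentiated replicate 2. The miR-221 change kept its sign in each of the 9 fits and passed in 4 with PDGF-BB and in 3 in edited cells. For PDGF-BB it was lost without differentiated replicate 1, 2 or 3 or PDGF-BB replicate 2 or 3 (edgeR adjusted p = 0.0530 to 0.107). For edited cells it was lost without any differentiated replicate, PDGF-BB replicate 2, or edited replicate 2 or 3 (edgeR adjusted p = 0.0557 to 0.246). The miR-222 change in edited cells passed without differentiated replicate 2 (−1.63 ± 0.41, edgeR adjusted p = 0.0247), edited replicate 2 (−1.25 ± 0.33, 0.0280), PDGF-BB replicate 1 (−0.91 ± 0.29, 0.0443) or PDGF-BB replicate 3 (−0.91 ± 0.25, 0.0159). Each library was also thinned to the smallest total in 10 random draws without replacement. With PDGF-BB the miR-221 ratio then passed in 6 of the 10 draws and the miR-222 ratio in 10, and in edited against differentiated cells each ratio passed in 2.

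The ratio between the guides of the 2 hairpins differed little between differentiated and PDGF-BB libraries. The miR-221-3p:miR-222-3p ratio was 17.9, 19.9 and 16.0 in differentiated replicates 1, 2 and 3, 17.4, 17.2 and 20.1 in PDGF-BB replicates, and 22.6, 20.9 and 26.4 in edited replicates. Edited libraries lay above the others by a small margin, and after thinning they did so in 5 of the 10 draws. An exact permutation test of the log2 ratio over the 3 groups, by the F statistic, which has no direction, gave p = 0.0536, where the smallest possible is 0.00357, and 0.0536 after adjustment over the 2 ratios between hairpins. It fell under 0.05 when differentiated replicate 2, PDGF-BB replicate 3 or edited replicate 2 was left out (exact permutation p = 0.0321, 0.0357 and 0.0429), and lay between 0.0786 and 0.171 without any 1 of the other 6 libraries. After thinning the exact permutation p ran from 0.025 to 0.146 over the 10 draws, and 2 of them were under 0.05. Pairwise it was 0.1 for edited against either other group, the smallest that 3 libraries against 3 allow. The mean log2 ratio was 0.027 higher in PDGF-BB than in differentiated cells and 0.38 higher in edited than in differentiated cells.

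The ratio between the passengers of the 2 hairpins was lower in each PDGF-BB library than in any differentiated one, and PDGF-BB and edited libraries overlapped. The miR-221-5p:miR-222-5p ratio was 6.58, 2.17 and 4.13 in differentiated replicates 1, 2 and 3, 1.39, 0.917 and 0.654 in PDGF-BB replicates, and 1.41, 2.13 and 1.195 in edited replicates. miR-221-5p was thus the more abundant passenger in each differentiated and edited library, and miR-222-5p in PDGF-BB replicates 2 and 3. The exact permutation test over the 3 groups gave p = 0.0107 (0.0214 after adjustment over the 2 ratios). It was 0.0571 without PDGF-BB replicate 2 and 0.0607 without PDGF-BB replicate 3, and 0.00357 to 0.0393 over the 10 thinned draws. The means of the log2 ratio were 1.93 ± 0.78, −0.087 ± 0.54 and 0.61 ± 0.43 (SD, n = 3 each) in differentiated, PDGF-BB and edited cells. With 3 libraries against 3, a pairwise exact permutation test cannot go below 0.1, which was its value for PDGF-BB and for edited against differentiated cells, and it was 0.2 for edited against PDGF-BB cells.

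**Figure D3:**
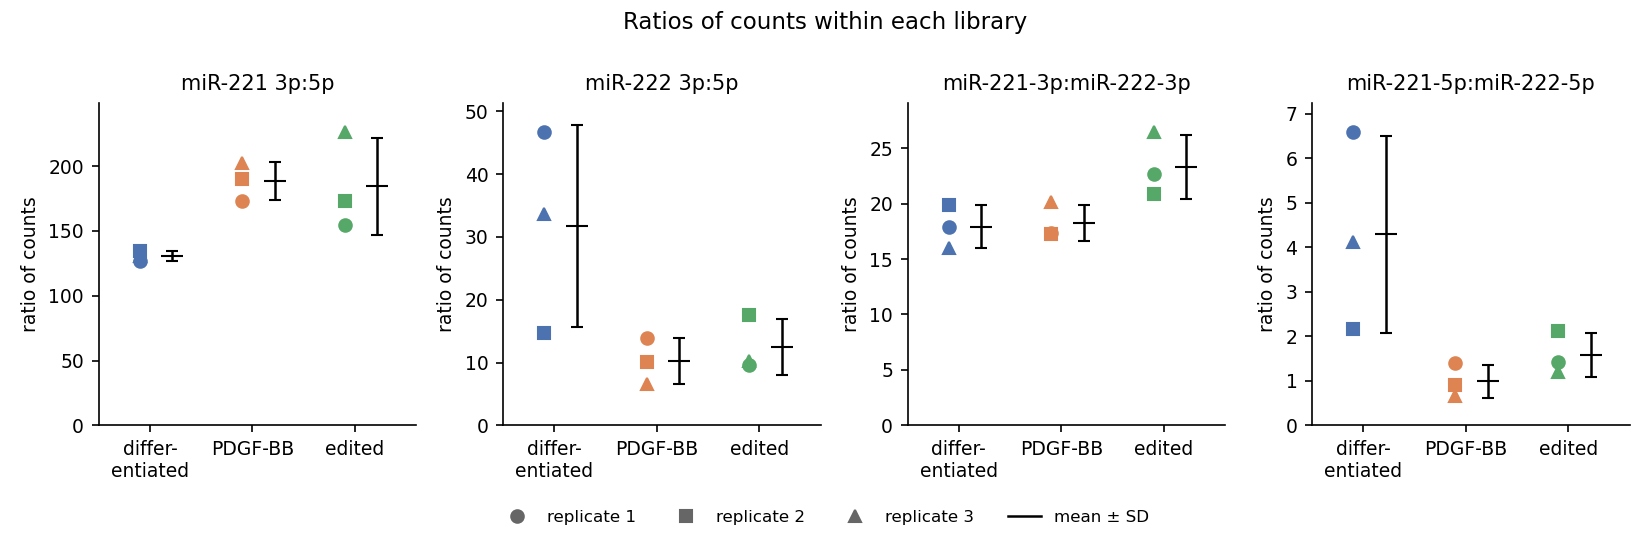
Ratios of counts within each of the 9 libraries (vertical axes, linear from 0, 1 scale per panel); symbols mark replicates and bars the mean ± SD of 3 libraries. The miR-221 3p:5p ratio is lowest and the miR-222 3p:5p ratio mostly highest in differentiated cells, the guide ratio stays between 16.0 and 26.4, and the passenger ratio is lower in PDGF-BB than in differentiated libraries, while PDGF-BB and edited libraries overlap.

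The likeness of profiles was measured as the root mean square difference between log2 CPM values over the 9 libraries, each miRNA centred on its own mean; it is a description without a test. miR-222-3p was the nearest of 303 miRNAs to miR-221-3p, at 0.21, and miR-221-5p the next, at 0.27. miR-222-5p, from the same hairpin as miR-222-3p, had rank 81, at 0.75, against a median of 0.89 over all 303. Outside the cluster the nearest to miR-221-3p were miR-125b-1-3p (0.28), miR-7a-5p (0.35), miR-449a-5p (0.37), miR-212-3p (0.43) and miR-99b-3p (0.44). miR-125b-1-3p, a passenger arm of miR-125b, measured 251 ± 15.4 CPM in differentiated cells, 385 ± 19.0 after PDGF-BB, and 124 ± 27.1 after editing. The nearest to miR-222-3p outside the cluster were miR-125b-1-3p (0.38), miR-326-3p (0.38), miR-212-3p (0.39), miR-760-3p (0.42) and miR-132-3p (0.43). For miR-222-5p they were miR-129-5p (0.44), which is among the neuronal markers above, and miR-3558-5p (0.45), ahead of each arm of its own cluster. Seen from miR-222-5p, miR-221-3p had rank 4 of 303 (0.75), miR-222-3p rank 8 (0.83) and miR-221-5p rank 20 (0.96). The median for miR-222-5p was 1.31, so the cluster arms were among its nearer profiles.

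**Figure D4:**
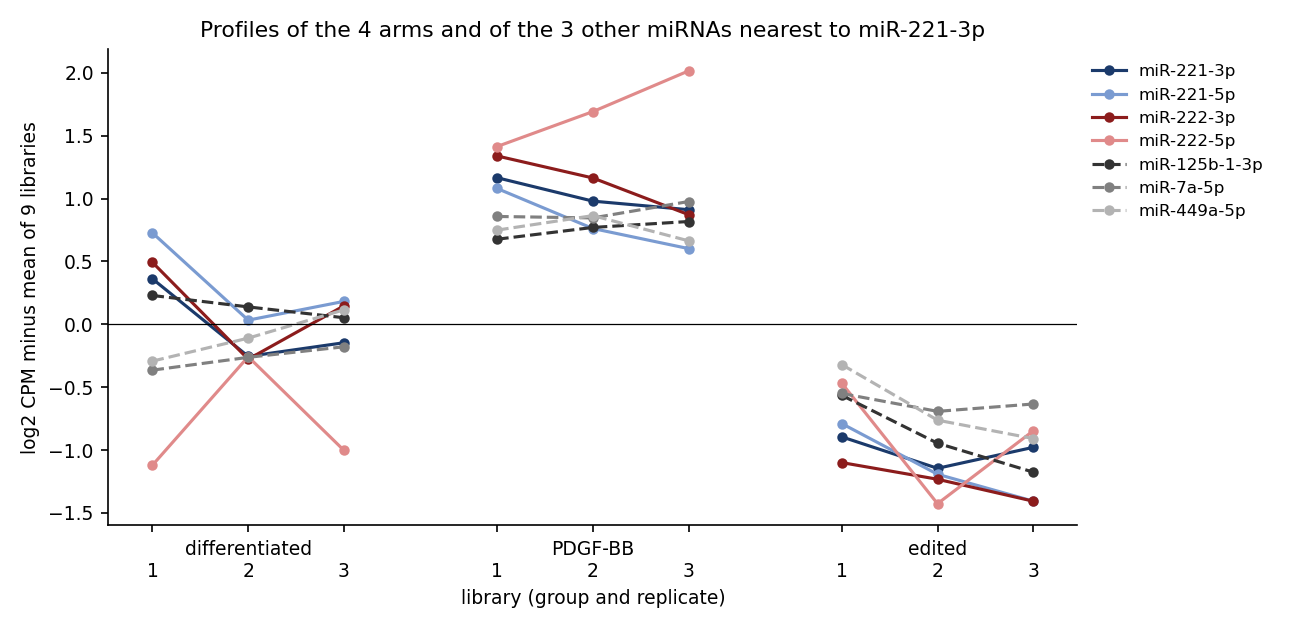
Log2 CPM minus the mean of the 9 libraries (vertical axis) for the 4 arms (solid) and the 3 other miRNAs nearest to miR-221-3p (dashed), by group and replicate; lines only join the points of 1 miRNA within a group. The guides and miR-221-5p run together, while miR-222-5p lies below them in differentiated replicates 1 and 3 and above them in each PDGF-BB library.

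Other miRNAs linked to smooth muscle state were counted beside the cluster. Of 19 tested arms linked to proliferation, injury or de-differentiation, without the members, 4 rose and 1 fell with PDGF-BB. These were 21.1% and 5.26%, against 7.24% higher and 2.96% lower over all tested miRNAs (median log2 0.34, against 0.031). The 4 were miR-181b-1-3p, miR-181b-5p, miR-146b-3p and miR-146b-5p. Arms of the same hairpin were counted separately here and below, and are not independent of each other. The largest rise was that of miR-181b-1-3p (1.57 ± 0.30), below that of miR-222-5p. The 4 became 1 without differentiated replicate 2, 0 without differentiated replicate 3 and 2 without PDGF-BB replicate 1. The 1 fall was absent without any 1 of the 6 compared libraries and with library totals. With library totals 0.658% of all tested miRNAs were called lower. PDGF-BB calls among all miRNAs in either direction ran from 3 to 53 over the 9 fits without 1 library. Of the 19, with editing and against differentiated cells, 7 rose and 10 fell, against 32.2% higher and 27.0% lower over all tested miRNAs (median −0.35, against −0.0064). The largest changes were the falls of the 2 arms of miR-146a (−3.81 ± 0.52 for the 5p arm). The next largest were the rises of miR-146b-3p (3.16 ± 0.30) and miR-146b-5p (2.80 ± 0.29). In edited against PDGF-BB cells 5 rose and 12 fell, against 28.0% and 30.9% over all tested miRNAs.

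Of 5 tested contractile arms, those of miR-143, miR-145 and miR-1, 3 fell with PDGF-BB (2.96% of all tested miRNAs were called lower) and all 5 fell in edited cells against either other group (27.0% of all tested miRNAs were called lower against differentiated and 30.9% against PDGF-BB cells). With PDGF-BB miR-145-3p fell by 0.72 ± 0.12 on the log2 scale while both guides of the cluster rose. With library totals the 3 falls became 1, where 0.658% of all tested miRNAs were called lower. They became 0 without differentiated replicate 3 and 5 without edited replicate 1. Without differentiated replicate 1 or 2 or PDGF-BB replicate 2 or 3 the number was 1. Over the 9 fits without 1 library, PDGF-BB calls among all miRNAs in either direction ran from 3 to 53. Against differentiated cells, edited cells had miR-143-3p lower, a log2 fold change of −2.27 ± 0.19, so the contractile arms and both guides of the cluster were lower together there.

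Other miRNAs from anywhere on the same chromosome were counted as well. RefSeq places 42 other tested miRNAs on rat chromosome X, 4 of them also on another chromosome. With PDGF-BB edgeR called 0 of the 42, with 2 at an unadjusted p under 0.05, and DESeq2 called 0. Of all 304 tested miRNAs edgeR called 7.24% higher and 2.96% lower in this comparison, and 74 had an unadjusted p under 0.05. The 42 had a median log2 fold change of 0.0065 in edgeR. DESeq2 called 4.78% higher and 4.98% lower of the 502 miRNAs with a count. In edited against differentiated cells 15 rose and 9 fell (35.7% and 21.4%, against 32.2% and 27.0% of all tested miRNAs). With library totals the counts were 28 and 5, against 49.7% and 13.2% of all tested miRNAs. Without differentiated replicate 1, edited replicate 2 or edited replicate 3 the number that rose was 9. Calls among all miRNAs in either direction ran from 139 to 207 over the 9 fits without 1 library. In edited against PDGF-BB cells 18 rose and 11 fell (42.9% and 26.2%, against 28.0% and 30.9% of all tested miRNAs), or 10 rose without PDGF-BB replicate 2. Calls among all miRNAs in either direction ran from 145 to 198 over the 9 fits without 1 library. With library totals 22 of the 42 rose and 7 fell, against 40.8% and 17.1% of all tested miRNAs.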

How the data were processed

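Small RNA libraries (QIAseq, NextSeq single reads), 3 per group, were mapped by the submitters to Rnor 6.0, per the submitters' processing notes. No source used here names the aligner, the counter or the use of molecular identifiers. The deposited values are raw counts per mature miRNA, not normalized by the authors, and 0 columns belonged to other samples. Poisson intervals of CPM cover counting error only. Intervals of fold changes and of changes in arm ratios come from the quasi-likelihood fits, which also carry the spread between libraries. Groups came from the sample titles. Since no label says that replicates are separate cultures, the spread behind each p-value may be technical.

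The 9 libraries were fitted together by quasi-likelihood in edgeR 4.0.16 (R 4.3.3), from the whole table of 762 miRNAs, with TMM factors (0.847 to 1.29), a filter with a minimum count of 10 and Benjamini-Hochberg adjustment over the 304 tested. SE is the absolute log2 fold change over the square root of F. Ratios between hairpins used a pseudocount of 0.5, and likeness a prior count of 2. Thinning drew counts without replacement. Alternatives used DESeq2 1.42.0 and limma 3.58.1, among others. The tests were run first on simulated data. RefSeq matched 686 of the 762 names. Replicates of a group differed by more than sampling noise (chi-square per degree of freedom 15.0 to 576). The members, lists and tests were chosen with earlier results of these data known. Named miRNAs are the members, marker arms, the 5 nearest profiles of each guide, and those of the largest change in a list. The nearest profiles of miR-222-5p were added after its values were seen, as were the changes of single epithelial, blood and neuronal markers.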

Additional observations from a re-analysis of the deposited data

How the results depend on the processing

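The members' log2 fold changes were recomputed in 7 other settings and without each library in turn. In the 7 settings each kept its sign and its side of the threshold, except miR-222-5p in edited against differentiated cells (0.17 with library totals, 0.47 after thinning in 1 draw, −0.49 to 0.17 without 1 library), which passed in none of them. Without 1 library the PDGF-BB rises ran from 0.88 to 1.25 for miR-221-3p and from 0.80 to 1.22 for miR-222-3p, and the PDGF-BB call count over all miRNAs from 3 to 53, with 49 by DESeq2.

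The 3p:5p ratio of miR-221 with PDGF-BB was 0.53 by limma, with or without the replicate block, not past the threshold, and 0.47 to 0.59 without 1 library. For edited against differentiated cells it was 0.48 by limma, with or without the block, 0.55 after thinning and 0.49 without the filter, none past, and 0.34 to 0.56 without 1 library. In edited against PDGF-BB cells it ran from −0.19 to 0.033 without 1 library. The ratio of miR-222 with PDGF-BB was −1.51 by limma, with or without the block, not past, and −2.08 to −1.03 without 1 library. In edited against differentiated cells it passed at −0.91 without the filter and at −1.81 in the thinning draw used for all results (2 of 10 draws passed, all 10 running from −1.81 to −1.01), and ranged from −1.63 to −0.62 without 1 library.

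Hairpins called with PDGF-BB went from 7 to 2 by limma and 0 with the block, and to 1 to 9 without 1 library. For edited against differentiated cells 7 became 0 in both settings and 0 to 9 without 1 library, and in edited against PDGF-BB cells 9 became 5 by limma. The exact permutation p was 0.0321 to 0.171 without 1 library for the guide ratio (0.0571 after thinning, 0.025 to 0.146 over 10 draws), and 0.00714 to 0.0607 for the passenger ratio (0.0143 after thinning). Thinning was first done with edgeR's thinCounts, which removes counts with replacement and so adds noise. Kept as an alternative chosen after seeing the data, it gave 3p:5p ratios of miR-221 of 0.41 with PDGF-BB and 0.64 in edited against differentiated cells, neither past the threshold, and 0.24, a reversed sign, in edited against PDGF-BB cells. It called 3, 0 and 3 hairpins in the 3 comparisons, and gave 0.511 for the guide and 0.0821 for the passenger ratio. The cause of these differences was not tested, beyond the fewer counts that thinning leaves.

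Equal replicate numbers deviated together in 4 of 9 pairs (correlations above 0.1, all 9 running from −0.032 to 0.42). Unequal numbers ran from −0.43 to 0.52, the highest being differentiated replicate 2 with PDGF-BB replicate 3. The numbers were not taken to pair the samples, and the replicate block changed no call of a member's level. With 3 libraries a group, and 12 to 52 counts of miR-222-5p in differentiated libraries, changes of this arm and its ratios are the least precise.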
